A study of Rattus norvegicus with 6 samples.

Results

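The carboxylesterase genes of the Ces1 and Ces2 subfamilies were examined in the livers of 6 male Sprague-Dawley rats. The members were 9 genes, Ces2a, Ces2c, Ces2e, Ces2g, Ces2h, Ces1c, Ces1d, Ces1e and Ces1f, and every non-control array probe whose RefSeq transcript belongs to one of them was taken. That gave 15 of 61657 probes, for 8 of the 9 genes, among 45877 gene or transcript names on the array. Ces2a, which the RefSeq table lists as a transcribed pseudogene, matched no probe and has no value here. All 15 probes passed the filter on dim probes, which kept a probe when it was well above background on every array of at least 1 group.

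The animals had received TCEP, tris(2-chloroethyl) phosphate, a flame retardant of the organophosphate class, at a daily dose of 400 mg per kg, or corn oil alone. Each group held 3 rats with 1 single-colour Agilent array per liver. The rats were bought at 5 weeks of age. The labels give the length of dosing as 9 weeks in the treatment protocol and as 28 days in the design text, and the disagreement cannot be settled here. Sprague-Dawley rats are outbred, so animals of 1 group differ in genotype. The question put to these genes was whether their transcripts differ with TCEP and whether both subfamilies do so alike.

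Carboxylesterases are serine hydrolases that cut esters and amides, and most of them reside in the lumen of the endoplasmic reticulum of hepatocytes. They activate or clear many ester drugs, and they bind the oxon forms of organophosphate pesticides at the catalytic serine. Several Ces1 enzymes also act on stored triacylglycerol in rodent liver. In rodents some Ces2 genes are inducible through CAR and PXR, the nuclear receptors that sense foreign compounds. In the RefSeq order Ces1f, Ces1e, Ces1d and Ces1c lie next to each other on chromosome 19, whereas Ces2c lies on chromosome 1 and the other Ces2 members on chromosome 19.

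The 250 bases before the annotated start are shown for the pair of Ces2 genes with the best separated groups, Ces2c and Ces2h, and for the neighbours Ces1c and Ces1d, whose differences had opposite signs. Sequences are from RefSeq, assembly GRCr8, which held such a window for the 8 genes with probes. They run 5′ to 3′, and capitals mark matches to any of the motifs searched.
Ces2c (GRCr8 chr1:270376951-270377200, plus strand): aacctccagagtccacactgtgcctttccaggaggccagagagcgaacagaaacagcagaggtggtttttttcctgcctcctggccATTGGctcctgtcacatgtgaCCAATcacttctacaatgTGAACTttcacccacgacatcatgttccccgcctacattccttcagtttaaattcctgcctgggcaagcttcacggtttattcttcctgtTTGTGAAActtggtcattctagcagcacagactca
Ces2h (GRCr8 chr19:49883914-49884163, plus strand): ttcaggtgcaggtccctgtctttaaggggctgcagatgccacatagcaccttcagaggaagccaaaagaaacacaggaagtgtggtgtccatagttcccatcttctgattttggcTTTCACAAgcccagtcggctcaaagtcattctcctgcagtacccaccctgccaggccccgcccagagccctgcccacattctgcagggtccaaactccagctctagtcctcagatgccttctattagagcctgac
Ces1c (GRCr8 chr19:30099197-30099446, plus strand): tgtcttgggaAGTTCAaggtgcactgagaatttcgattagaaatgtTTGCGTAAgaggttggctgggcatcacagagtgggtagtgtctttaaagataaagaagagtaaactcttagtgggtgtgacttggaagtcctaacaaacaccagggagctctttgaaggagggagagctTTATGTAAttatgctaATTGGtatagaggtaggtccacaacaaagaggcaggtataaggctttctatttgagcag
Ces1d (GRCr8 chr19:30046244-30046493, plus strand): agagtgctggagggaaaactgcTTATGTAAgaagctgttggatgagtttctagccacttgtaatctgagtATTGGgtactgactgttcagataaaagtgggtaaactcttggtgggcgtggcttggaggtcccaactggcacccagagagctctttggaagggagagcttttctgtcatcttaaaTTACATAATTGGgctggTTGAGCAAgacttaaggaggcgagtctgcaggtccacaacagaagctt

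The motifs were searched on both strands in 33469 windows of the same length. The C/EBP motif TTNNGNAA occurred in 7 of the 8 member windows, all except that of Ces2g, against 37.2% of all windows. The CCAAT box occurred in 6 of 8, against 34.0% of all windows, and in Ces1d and Ces1f it shares bases with a C/EBP match. Of the hexamers that nuclear receptors bind, AGTTCA occurred in the windows of Ces2c and Ces1c, against 12.2% of all windows. AGGTCA occurred in 0 member windows, against 14.1% of all windows. Pairs of the hexamer AGNTCA, as direct repeats spaced by 3 or 4 bases and as an everted repeat spaced by 6, each had 0 matches in the member windows and in at most 0.060% of all windows. The HNF4 core CAAAGTCCA (0.338% of all windows), the HNF1 hexamer GTTAAT (6.45%) and TATAAA (12.9%) also had 0 member matches, and the antioxidant response core TGACNNNGC occurred in that of Ces2g and in 10.1% of all windows. The members are paralogs, so their matches are not independent, and a match is a run of letters, not a shown binding site. For motifs this rare, 0 matches in 8 windows is uninformative. Bases farther from the start were not searched, so the absences say nothing about sites there.

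Every value below is a log2 ratio of a probe's processed signal to the 75th percentile of its array, so 0 is the signal of that percentile. Probes differ in how strongly they bind, and the levels of different genes are therefore not ranked. TCEP and corn oil livers were compared with limma over 27642 genes, each represented by its brightest kept probe, and p-values were adjusted over all of them by the Benjamini-Hochberg method.

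No carboxylesterase passed an adjusted p of 0.05, as 0 of 27642 genes did (0%). Ces2c and Ces2h had means 2.21-fold and 1.51-fold higher in TCEP livers, while the 4 Ces1 genes lay between 1.29-fold higher (Ces1f) and 1.25-fold lower (Ces1d). At an unadjusted p under 0.05 there were 2 members with a higher mean, both Ces2, and 0 with a lower mean. Over all genes 2543 (9.2%) met that criterion, 5.01% higher and 4.19% lower, and the count was 1644 without TCEP replicate 3. Every TCEP animal exceeded every corn oil animal in 3 of 4 measured Ces2 genes and in 0 of 4 Ces1 genes, against 10.3% of all genes, and the reverse held in 0 members, against 7.06% of all genes. Counted by probe, the TCEP animals were all above the corn oil animals on 4 of 15 probes, against 10.1% of all probes tested on their own.

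**Figure D1:**
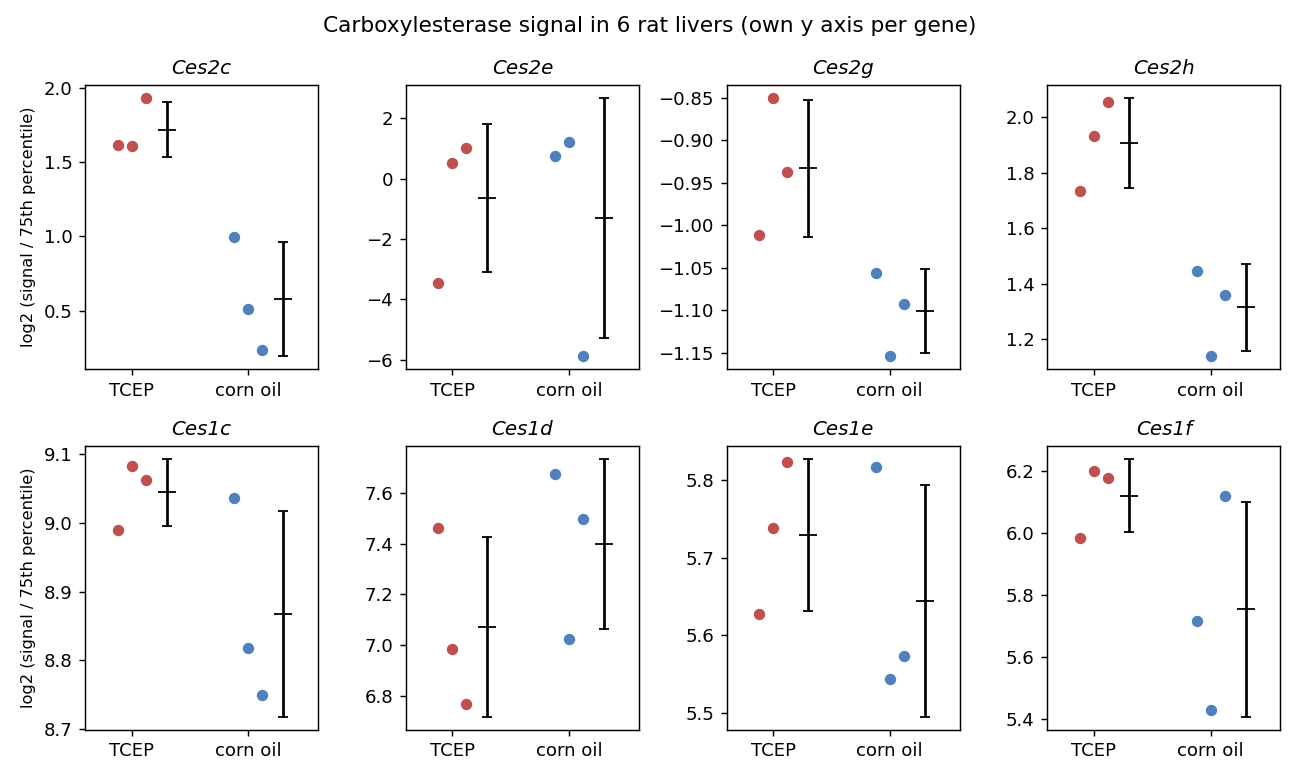
Log2 signal relative to the 75th percentile of the array (y axis, own scale per panel) for the brightest probe of each gene, in TCEP livers (red) and corn oil livers (blue). Points are animals, and the bar shows mean ± SD of 3. The groups are apart in Ces2c, Ces2g and Ces2h and overlap in the other panels, and 1 animal of each group is far below the rest in Ces2e.

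Among the Ces2 genes, Ces2c, listed in RefSeq under the older name ACH M1, had the largest difference whose interval left out 0. Its single probe read 1.62, 1.61 and 1.93 in TCEP livers, against 0.99, 0.51 and 0.23 in corn oil livers. The TCEP animals lay close together and above every corn oil animal, and the corn oil animals were spread more widely. The means were 1.72 ± 0.19 in TCEP livers and 0.58 ± 0.38 in corn oil livers (SD, n = 3 each). The log2 difference of 1.14 ± 0.21 (SE) had a 95% interval of 0.62 to 1.66, a fold of 1.54 to 3.16, with an adjusted p = 0.373 in limma. By its p-value Ces2c ranked 115 among the 27642 genes.

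Ces2h read 1.73, 1.93 and 2.06 in TCEP livers, against 1.44, 1.14 and 1.36 in corn oil livers. All 3 TCEP animals again lay above all corn oil animals, with a similar spread in both groups (SD 0.16 each, n = 3). The log2 difference was 0.59 ± 0.13 (SE), a fold of 1.21 to 1.88 by its 95% interval, with an adjusted p = 0.438 in limma. Ces2h ranked 232 of 27642 by its p-value.

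Ces2g, which lies near Ces2h on chromosome 19, differed far less. Its brighter probe read -1.01, -0.85 and -0.94 in TCEP livers, against -1.06, -1.15 and -1.09 in corn oil livers. These groups did not overlap, but the gap between the nearest animals was small, and the log2 difference was 0.17 ± 0.09 (SE, n = 3 each, limma adjusted p = 0.608). The dimmer probe read -2.77, -2.94 and -2.59 in TCEP livers, against -2.82, -3.02 and -2.86 in corn oil livers. There the groups overlapped, and its log2 difference was 0.13 ± 0.12 (SE). The 95% interval of the brighter probe, 0.96-fold to 1.31-fold, lay below the estimate for Ces2h.

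Ces2e divided the animals within each group rather than between the groups. Its probe read -3.46, 0.51 and 1.03 in TCEP livers, against 0.77, 1.23 and -5.88 in corn oil livers. Replicate 1 of TCEP and replicate 3 of corn oil were thus several log2 units below the other 4 animals, which lay together whatever their treatment. On the scanner's linear scale the processed signals were 50.6, 692 and 1070 in TCEP livers and 803, 1085 and 9.03 in corn oil livers, and the spot of corn oil replicate 3 was not well above background. No spot of this probe carried an outlier flag. Of all genes 0.00724% had a wider range among the corn oil animals and 0.0760% among the TCEP animals. The log2 difference of 0.65 ± 2.17 (SE, n = 3 each, limma adjusted p = 0.943) depended on single animals: it was -1.64 without corn oil replicate 3 and 2.07 without TCEP replicate 1. A difference between the groups was not detectable in Ces2e at this spread.

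**Figure D2:**
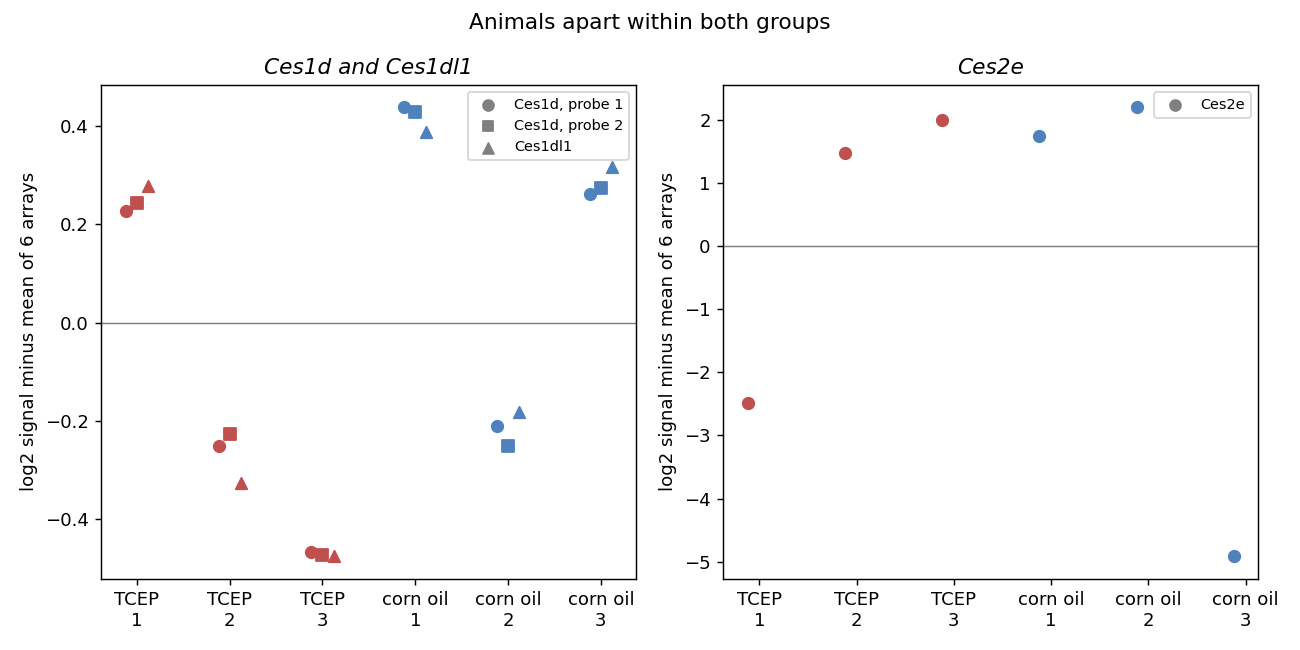
Log2 signal minus the mean of the 6 arrays (y axis) for each animal (x axis), for both Ces1d probes and the paralog Ces1dl1 (left) and for Ces2e (right), with TCEP in red and corn oil in blue. The 3 probes on the left place the animals alike, with TCEP replicates 2 and 3 and corn oil replicate 2 low, and on the right TCEP replicate 1 and corn oil replicate 3 are low.

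Among the Ces1 genes, Ces1c, known in rodents as an esterase secreted from liver into plasma, had 3 probes. The brightest read 8.99, 9.08 and 9.06 in TCEP livers, against 9.04, 8.82 and 8.75 in corn oil livers. Corn oil replicate 1 lay among the TCEP animals and the other corn oil animals below them. The log2 differences of the 3 probes were 0.18, 0.20 and 0.25, with SE of 0.11 each, and their intervals all held 0. On the dimmest of them, with 6.14, 6.15 and 6.31 in TCEP livers against 6.06, 5.82 and 5.98 in corn oil livers, the groups were apart. The 95% interval of the brightest probe was 0.94-fold to 1.36-fold, and on the log2 scale the upper limits of the other probes were 0.47 and 0.51.

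Ces1d encodes the enzyme known as triacylglycerol hydrolase, which mobilises stored triacylglycerol for lipoprotein assembly in rodent hepatocytes. It was the single member whose mean was lower in TCEP livers. Its brighter probe read 7.46, 6.99 and 6.77 in TCEP livers, against 7.67, 7.03 and 7.50 in corn oil livers. Both groups held high and low animals, and the log2 difference of -0.33 ± 0.24 (SE, n = 3 each, limma adjusted p = 0.694) was within their spread. The other probe gave -0.30 ± 0.25 (SE). The difference of the brighter probe ran from -0.52 without TCEP replicate 1 to -0.18 without TCEP replicate 3 when 1 array was left out.

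The spread among animals in Ces1d was seen on separate probes. Ces1dl1, a paralog elsewhere on chromosome 19 that was singled out after its values were seen, read 2.26, 1.65 and 1.50 in TCEP livers, against 2.37, 1.80 and 2.30 in corn oil livers. TCEP replicate 1 and corn oil replicates 1 and 3 were high on both genes, and TCEP replicates 2 and 3 and corn oil replicate 2 were low. Probe sequences were not used here, so it is unknown how far probes of these paralogs share signal. The neighbours of Ces1d did not divide the animals in this way.

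Ces1e, which in mouse is egasyn, the partner that holds beta-glucuronidase in the endoplasmic reticulum, had nearly equal group means on each of its 3 probes. The brightest read 5.63, 5.74 and 5.82 in TCEP livers, against 5.82, 5.54 and 5.57 in corn oil livers. The groups overlapped, and the log2 differences of the 3 probes were 0.09, 0.01 and 0.03, with SE of 0.12, 0.11 and 0.10. With quantile normalization the first was -0.014. The 95% interval of the first was 0.87-fold to 1.29-fold. Gusb, beta-glucuronidase itself, read 1.78, 1.87 and 1.55 in TCEP livers, against 1.51, 1.75 and 1.70 in corn oil livers, with a log2 difference of 0.08.

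The brighter probe of Ces1f read 5.98, 6.20 and 6.18 in TCEP livers, against 5.72, 5.43 and 6.12 in corn oil livers. Corn oil replicate 3 lay within the TCEP range and the other corn oil animals below it. The log2 difference was 0.37 ± 0.19 (SE, n = 3 each, limma adjusted p = 0.594), and the second probe gave 0.39 ± 0.17 (SE). The difference was 0.20 without corn oil replicate 2.

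**Figure D3:**
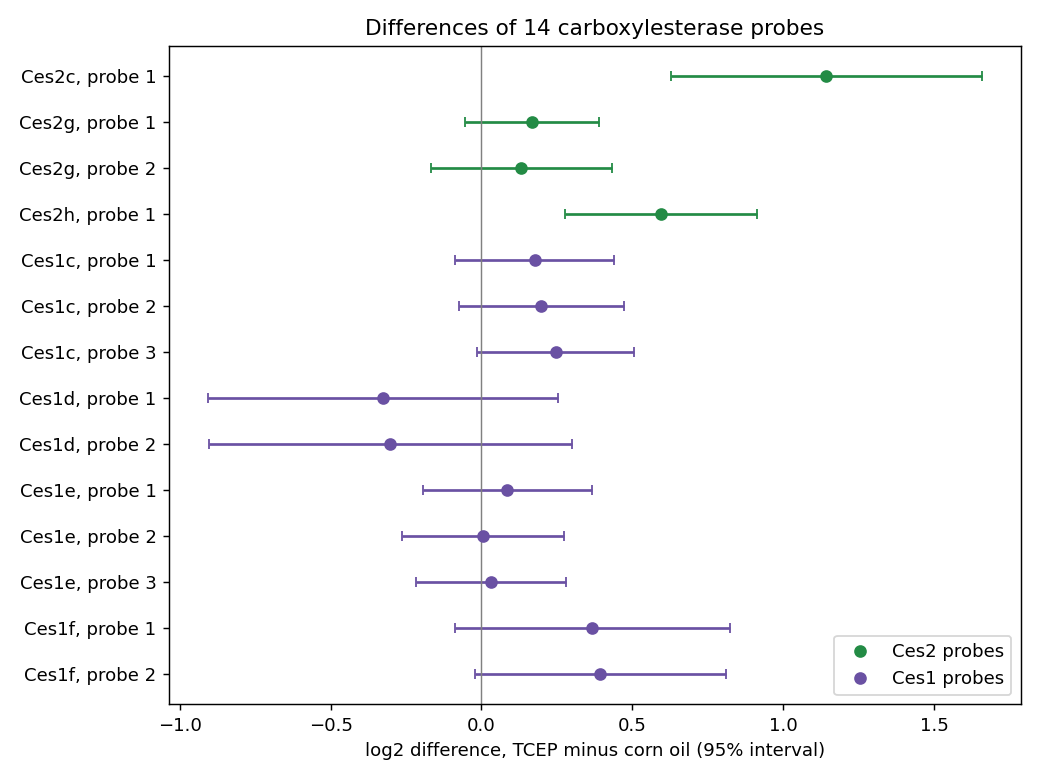
Log2 difference, TCEP minus corn oil (x axis), with 95% intervals from limma for 14 of the 15 probes; Ces2e, whose interval spans several log2 units on either side of 0, is left out. Probes are numbered by brightness within a gene. The intervals of Ces2c and Ces2h lie above 0 and the other 12 hold 0.

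Set side by side, the Ces2 differences had a median of 0.62 over 4 genes and the Ces1 differences a median of 0.13 over 4 genes, against 0.00 over all genes. The Ces2 median includes Ces2e, and with a filter on all 6 arrays, which left that gene out, it was 0.59 over 3 genes. With 1 array left out the Ces2 median ran from 0.35, without TCEP replicate 2 or 3, to 1.00, without corn oil replicate 1, and it was 0.31 with normexp background correction. All 4 Ces2 genes and 3 of 4 Ces1 genes had a higher mean in TCEP livers, as did 50.9% of all genes. The Ces2 count was 3 of 4 without corn oil replicate 3 or without TCEP replicate 3, where the mean of Ces2e was lower, and the Ces1 count was 2 of 4 with quantile normalization. Ces2e had passed the filter on dim probes only through the TCEP arrays. The interval of Ces2c, from 0.62, lay above those of Ces1c (to 0.44), Ces1d (to 0.26) and Ces1e (to 0.37) and overlapped that of Ces1f (to 0.82). The interval of Ces2h overlapped those of Ces1c, Ces1e and Ces1f and lay just above that of Ces1d. The difference between the subfamilies itself was not tested, because the members were chosen with results of these arrays known.

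Slide and treatment cannot be told apart, since no slide held arrays of both groups. The TCEP arrays shared slide 3 and the corn oil arrays lay on slides 1 and 2. Corn oil replicate 2 was alone on its slide and was scanned 23 days after the others. Among the 5 arrays of the earlier day the log2 differences were 1.11 for Ces2c, 0.51 for Ces2h, 0.14 for Ces2g, 0.15 for Ces1c, 0.03 for Ces1e, 0.20 for Ces1f, -0.51 for Ces1d and 1.92 for Ces2e. The share of probes well above background was 61.6% to 64.4% on the TCEP arrays and 57.2% to 63.7% on the corn oil arrays. All 6 hepatocyte markers were well above background on all arrays, with summed ratios to the 75th percentile of 5262 to 5965 in TCEP livers and 5798 to 6230 in corn oil livers. Of 5 cholangiocyte markers 4 had a probe, all of them well above background on all arrays, and their sum was 1.57 to 2.38 in TCEP livers and 1.16 to 1.49 in corn oil livers; its part in the Ces2 differences was not tested. The sums of macrophage, stellate cell, endothelial, erythroid and T and NK cell markers overlapped between the groups. Fewer cells of a type and less RNA per cell cannot be told apart in such whole-liver samples.

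Genes known to be induced through CAR and PXR were read beside the carboxylesterases. Of 21 such genes, a list drawn up with earlier results of these arrays known, 0 passed the adjusted threshold in either direction. At an unadjusted p under 0.05, 13 had a higher mean in TCEP livers, against 5.01% of all genes. A lower mean was seen in 1, the P450 reductase gene Por, against 4.19% of all genes. The median log2 difference of the list was 0.72. Cyp2b2, a drug hydroxylase, read 7.52, 6.97 and 7.18 in TCEP livers, against 6.34, 5.03 and 5.86 in corn oil livers. Cyp3a23-3a1, a steroid and drug hydroxylase, read 7.48, 7.34 and 7.82 in TCEP livers, against 6.92, 5.70 and 6.18 in corn oil livers. In both genes, as in Ces2c, corn oil replicate 1 was the highest of the corn oil animals. The lowest in both was corn oil replicate 2, the array alone on its slide, whereas in Ces2c it was replicate 3. The highest was replicate 3 in Cyp2b1, Cyp3a2 and Cyp2c6v1 and replicate 2 in Cyp2c7, so the list had no common order of animals. The log2 differences of Cyp2b2 and Cyp3a23-3a1 were 1.48 and 1.28, and that of Cyp2b1 was 0.75. The list ran from -0.40 to 2.25, a range wide enough to hold every measured member of both subfamilies, Ces1 as well as Ces2. The bright members Cyp3a2, Cyp2c6v1 and Cyp2c7 had log2 differences of 0.44, 0.72 and -0.17.

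**Figure D4:**
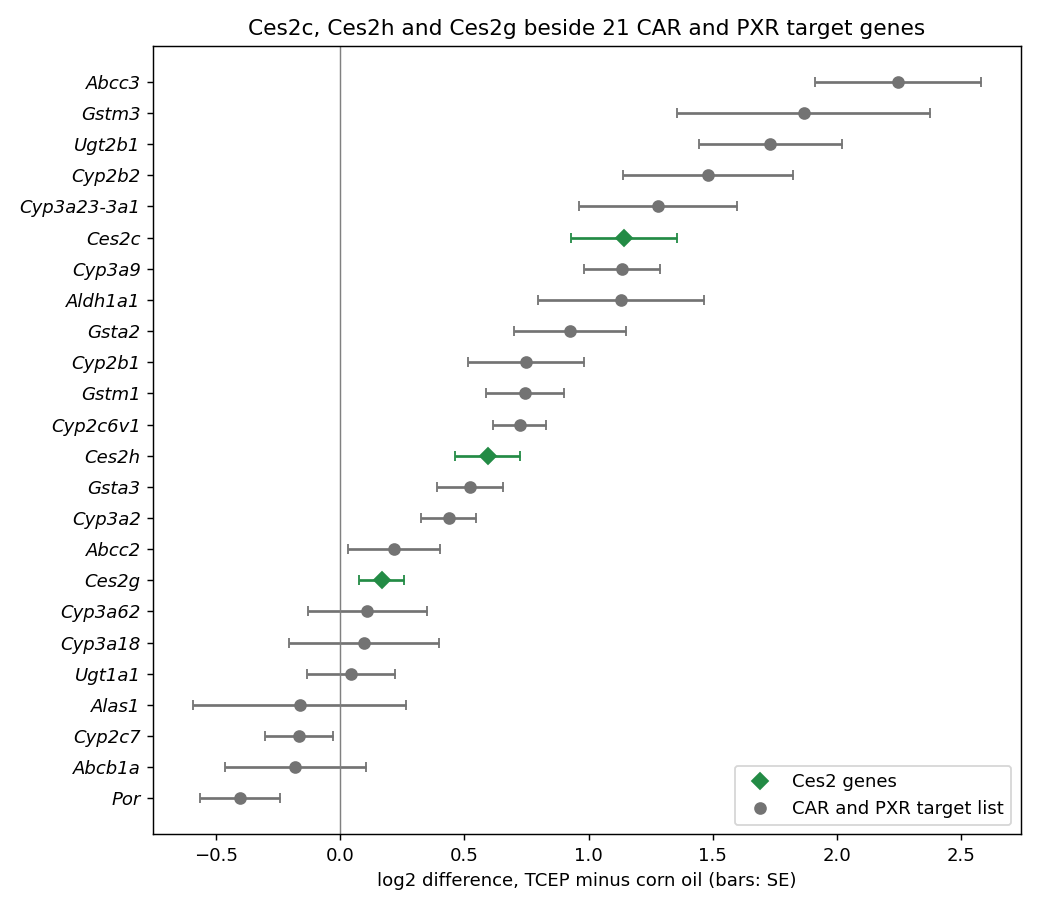
Log2 difference, TCEP minus corn oil (x axis, bars SE), for Ces2c, Ces2h and Ces2g (green diamonds) and the 21 CAR and PXR target genes (grey circles), sorted by size. Ces2c lies between Cyp3a23-3a1 and Cyp3a9, and Ces2h between Cyp2c6v1 and Gsta3.

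The receptors themselves had small mean differences with wide intervals. Nr1i2, which encodes PXR, read 5.81, 6.23 and 5.60 in TCEP livers, against 6.01, 5.80 and 6.31 in corn oil livers, with a log2 difference of -0.16. Nr1i3, which encodes CAR, had -0.19, and in both genes the groups overlapped. Of 12 nuclear receptor and liver transcription factor genes 0 passed the adjusted threshold. An unadjusted p under 0.05 was met by 1 gene, against 9.2% of all genes. It was the bile acid receptor Nr1h4, with a log2 difference of 0.42. The sterol receptor Nr1h3 had 0.14.

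Other hydrolases and genes of triacylglycerol use had list medians near 0. Of 29 measured esterases and hydrolases outside the members 0 passed the adjusted threshold. At an unadjusted p under 0.05 there was 1 with a higher mean, Cmbl, carboxymethylenebutenolidase, against 5.01% of all genes. Its log2 difference was 0.28, and the median of the list was 0.05. Aadac, a liver esterase of the endoplasmic reticulum, had -0.21, the plasma cholinesterase Bche -0.03, the paraoxonase Pon1 0.12 and the esterase Esd 0.12. Of 16 measured genes of triacylglycerol storage and lipoprotein assembly 0 passed. A higher mean at an unadjusted p under 0.05 was seen in 1, Tm6sf2, against 5.01% of all genes. Apob, Apoc3 and Apoe, the lipoprotein proteins, had log2 differences of -0.04, -0.09 and -0.09. Among 9 measured partners of retention in the endoplasmic reticulum 0 met either criterion, against 9.2% of all genes at the unadjusted one. So short a list can hold 0 at that share. The folding factors P4hb, Hspa5 and Calr had 0.07, -0.03 and -0.03.

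Likeness between genes was measured as the mean absolute difference, over the 6 arrays, between log2 values that were each centred on their own mean, across 10969 genes with a symbol. Closest to Ces2c were Sgcb, a sarcoglycan, Ddc, the aromatic amino acid decarboxylase, Aldh1a1, an aldehyde dehydrogenase, Nme4 and Cavin3, at 0.12 to 0.15. Closest to Ces1f were Tmem205, Tmem86b, the glycolytic enzyme Gapdh, the phosphatase Ptpn9 and Cd1d1, at 0.05 to 0.06. For Ces2e, added after its values were seen, the nearest gene was Mpped1 at 1.58, so no gene with a symbol was close to it.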

How the data were processed

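Liver RNA of 6 rats was hybridised to single-colour arrays. Per the file headers, the authors extracted signals with Agilent Feature Extraction 10.7.1.1, and the deposited files hold background-subtracted intensity values per spot. The deposited value table holds a ratio, processed signal over the 75th percentile of the array, as read from its values; what else the authors did is not given in the sources used here. Log2 processed signals were scaled to the 75th percentile over 61657 non-control probes; 64 spots with outlier flags were set to missing. Of these probes 37043 were kept, and 27460 of all non-control probes matched a symbol through RefSeq accessions. limma 3.58.1 (R 4.3.3) tested TCEP against corn oil, two-sided, after a check on simulated data. The array headers name an older build, so coordinates are given for promoter windows only.

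The members and lists were chosen with earlier results of these data known. Named genes were all members, the 3 brightest of each list, 9 fixed genes and the 5 nearest profiles; Por, Tm6sf2, Gsta3, Cyp3a9, Ces1dl1, Mpped1, Ces1a, Ces2b, Ces4a and Ces5a were added after their values were seen. Alternatives were other normalizations, background correction, filters, probe choices, test options, slide and replicate blocks, and leaving out each array. The files used hold no mean spot signal, so normexp, with an offset of 50, used the median signal. Groups came from the treatment label, each replicate being 1 animal per the labels' treatment protocol.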

Additional observations from a re-analysis of the deposited data

How the results depend on the processing

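In each of 18 alternatives 0 genes, 0 members and 0 genes of the context lists passed the adjusted threshold of 0.05 in limma. At an unadjusted p under 0.05 the count ran from 1644 of 28283 genes, without TCEP replicate 3, to 3224 of 27705, without corn oil replicate 3. With every probe on its own it was 3312 of 37043 probes. Ces2c (0.97 to 1.35), Ces2h (0.47 to 0.68), Ces2g (0.13 to 0.23), Ces1c (0.12 to 0.26), Ces1f (0.20 to 0.55) and Ces1d (-0.52 to -0.18) kept the sign of their log2 difference in all 18. For Ces2c, Ces2h and Ces2g the separated groups fix that sign when 1 array is dropped. The filters, the trend and robust options of the test, the replicate block, keeping outlier spots and fitting every probe left all these estimates unchanged. The deposited value table nearly repeated the main values, so these alternatives could not test the sign. Ces1e was -0.014 with quantile normalization, and Ces2e ran from -1.64 to 2.07 with 1 array left out, with -0.18 without TCEP replicate 3. The median Ces2 difference minus the median Ces1 difference was 0.49, 0.19 with normexp background correction, and 0.23 to 0.79 with 1 array left out. With the replicate number as a block, 1901 genes met an unadjusted p under 0.05 and the adjusted p of Ces2c was 0.702. Arrays of the same number did not deviate together (correlations of -0.05, -0.16 and -0.02). Such correlations cannot tell whether the animals were matched by number, and the main fit used no pairing. Corn oil spots of Ces2e were well above background on 2 of 3 arrays, which limits that gene, and 3 arrays per group limit the others.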

Other observations

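Other carboxylesterases with array probes gave these values, as log2 ratios to the 75th percentile. The brighter Ces1a probe read 0.30, 0.43 and 0.47 in TCEP livers, against 0.47, 0.06 and -0.12 in corn oil livers, and its other probe stayed near background on all 6. The Ces4a probes had log2 differences of 0.17 and 0.03, and the Ces5a probe that was above background had -0.09. The Ces2b probe stayed near background on all 6 arrays.

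The brightest kept probes of the 27642 genes were searched for the pattern of Ces2e. At a gap of at least 2 log2 units, 1 other of these probes was low on the same pair of arrays. That probe, A_64_P015753, has no gene name here and read -4.08, -1.54 and -1.83 in TCEP livers, against -1.12, -1.12 and -4.07 in corn oil livers.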
